A study of Ricinus communis with 6 samples.

Results

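The castor genes SUT1 (LOC8262746, also named scr1, the sucrose carrier of castor) and PPC1 (LOC8285021, a phosphoenolpyruvate carboxylase) were taken by their IDs from a table of 18875 gene rows, so 2 genes are described, each with 1 row. Poly(A) mRNA from the fifth internode of the main stem of field-grown castor (Ricinus communis) was sequenced in 6 libraries, taken in rapid growth when plants had 8 to 10 leaves. D1, D2 and D3 came from 071113, a dwarf or short-stalk selection from a cross of a dwarf castor with the variety Zhebisi. L1, L2 and L3 came from Zhuansihao (Zhansihao in the sample labels), a high-stalk variety bred from an Lm-type female line and Zhebisi, so both varieties have Zhebisi as a parent and neither was treated. The paper calls the libraries of each variety biological replicates. The labels speak of about 6 dissected plants and do not tie plants to libraries. A p-value below therefore measures the spread between these libraries, which may be partly technical. In this bulk tissue, fewer cells of a type and less RNA per cell cannot be told apart.

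Sucrose is made in leaves and travels to stems, roots and seeds in the phloem. Sucrose carriers of the SUT or SUC family couple the uptake of sucrose to a flow of protons, and SUT1-type carriers are known for loading sucrose into phloem cells and for taking back sucrose that leaks out along the stem. Phosphoenolpyruvate carboxylase fixes bicarbonate onto phosphoenolpyruvate, a product of sugar breakdown, to form oxaloacetate. In growing and storing tissue the oxaloacetate feeds malate and amino acid synthesis and refills the citric acid cycle.

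FPKM as deposited relates the fragments of a gene to its transcript length and to the mapped fragments of the library, which allows levels of different genes to be set side by side. The FPKM of a library summed to between 585381 and 600050. The number of reads is unknown. The depth relative to D1, read from repeated ratios of low values, lay between 0.868 and 1.08. Ratios far from equal depth were dropped before this reading, so it could not show a large difference in depth. In each library 718 to 1217 rows were listed at 0. D2 stood apart from the other dwarf libraries. Pearson correlations were taken on the log2(FPKM + 1) scale over 16236 genes. D2 had 0.792 with D1 and 0.958 with L1, while D1 and D3 had 0.978. L1 was also closer to D2 than to L2 (0.932) or L3 (0.927), while L2 and L3 had 0.966. The study left D2 out of its comparison, so each result is given without D2 and with it. No marker gene of phloem, xylem or leaf from a list of 12 name stems was matched by symbol, so the internode label was not checked against markers.

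SUT1 was among the abundant transcripts of most internodes, and its level varied widely within both varieties. SUT1 had 344 FPKM in D1, 73.6 in D2 and 296 in D3. In the high-stalk variety SUT1 had 153 FPKM in L1, 406 in L2 and 245 in L3. The varieties overlapped: the highest value was that of a high-stalk library, L2, and the lowest that of a dwarf library, D2, with D1 and D3 between L2 and L3. From D2 to L2 the level differed by a factor of 5.51. By rank, where 1 is the highest FPKM among all rows of a library, SUT1 stood at 160 in D1, 1721 in D2 and 203 in D3. It stood at 593 in L1, 127 in L2 and 267 in L3. The share of rows below SUT1 was 98.6% to 99.3% in D1, D3, L2 and L3, 96.9% in L1 and 90.9% in D2.

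PPC1 was at a lower level that differed little within the high-stalk variety. PPC1 had 76.2 FPKM in D1, 43.7 in D2 and 73.0 in D3. In the high-stalk variety PPC1 had 49.2 FPKM in L1, 50.5 in L2 and 50.1 in L3. D1 and D3 exceeded all of the high-stalk values and D2 fell short of them, so the 3 dwarf libraries lay on both sides of the high-stalk range. PPC1 ranked 1612 in D1, 3191 in D2 and 1665 in D3, and 2775 in L1, 2719 in L2 and 2769 in L3. Actin (LOC8269707), the reference gene of the study's qPCR, had 55.4 to 60.9 FPKM. PPC1 was above actin in D1 and D3 and below it in the other libraries, and SUT1 was above actin in each library.

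**Figure D1:**
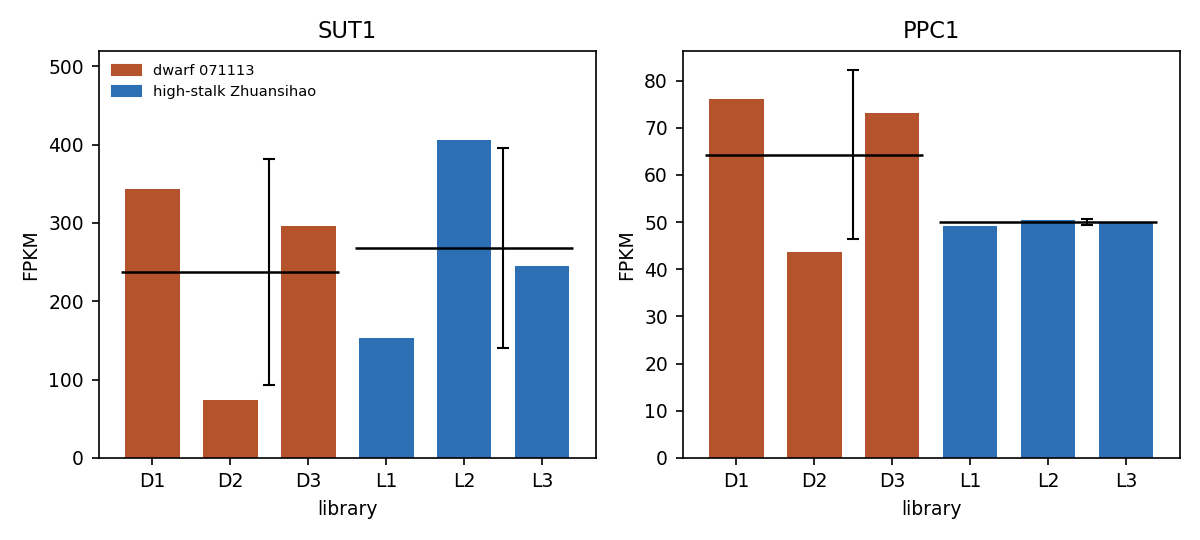
FPKM of SUT1 and PPC1 in each library, with bars for libraries, horizontal lines for the mean of each variety and vertical bars for the SD (n = 3). SUT1 ranged from 73.6 in D2 to 406 in L2 with overlapping varieties, and PPC1 was 76.2 and 73.0 in D1 and D3, 43.7 in D2, and 49.2 to 50.5 in Zhuansihao.

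The libraries of the high-stalk variety agreed closely for PPC1 and not for SUT1. PPC1 had 49.97 ± 0.662 FPKM (SD, n = 3) in Zhuansihao, a coefficient of variation of 1.33%, and SUT1 had 268 ± 128 FPKM (SD, n = 3), a coefficient of variation of 47.8%. In D1 and D3, PPC1 had 74.6 ± 2.24 FPKM (SD, n = 2) and SUT1 had 320 ± 34.3 (SD, n = 2). With D2 added, the dwarf values became 64.3 ± 17.9 FPKM (SD, n = 3) for PPC1 and 238 ± 144 (SD, n = 3) for SUT1. On the log2(FPKM + 1) scale the SD over the 6 libraries was 0.91 for SUT1 and 0.33 for PPC1, against a median of 0.32 over the 16236 genes tested. The SD of SUT1 was larger than that of 88.6% of these genes, and the SD of PPC1 larger than that of 51.0%.

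**Figure D2:**
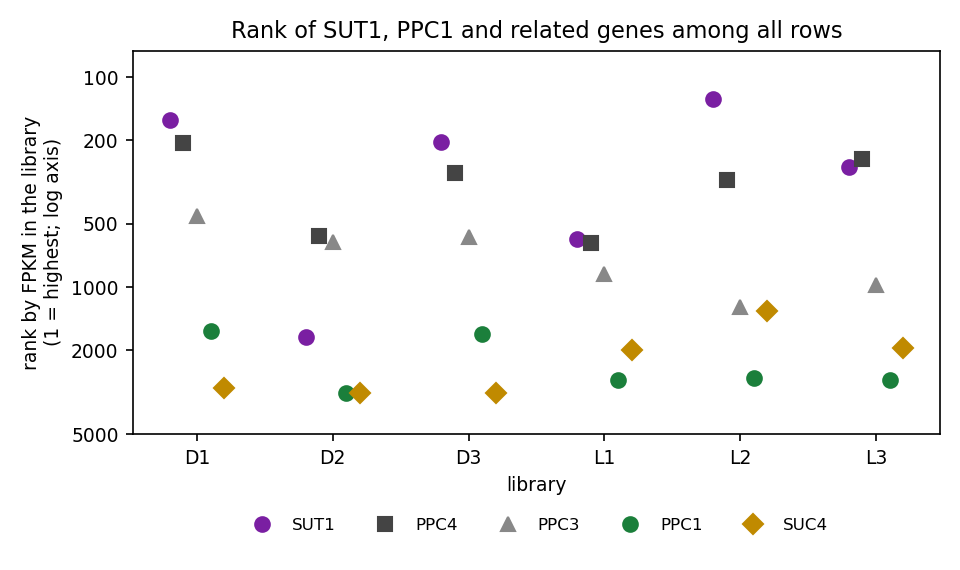
Rank by FPKM (vertical log axis, 1 is the highest of 18875 rows) of SUT1, PPC1 and 3 related genes in each library, with points set side by side. SUT1 ranked from 127 in L2 to 1721 in D2, and PPC1 from 1612 in D1 to 3191 in D2.

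Whether the dwarf and high-stalk internodes differed was tested with limma on log2(FPKM + 1), with Benjamini-Hochberg adjustment over all genes that reached an FPKM of 1 in 2 or more libraries. PPC1 rose in D1 and D3. The fold change of dwarf over high-stalk was 0.57 on the log2 scale (standard error 0.09, 95% interval 0.35 to 0.79, adjusted p = 0.0222), a ratio of mean FPKM of 1.49. Of 15925 genes tested, 6.96% were higher at an adjusted p under 0.05, so PPC1 was 1 of 1108 such genes. It did not reach the study's fold threshold, 2 on the log2 scale in either direction, which 2.53% of the genes passed together with the adjusted p. The call ended without L2 (adjusted p = 0.0517), where 963 genes were called in either direction, against 2090 with all 5 libraries. Without D1 or without D3 a lone dwarf library was left, so the call of PPC1 cannot be judged in those fits. The log2 fold change of PPC1 stayed between 0.54 and 0.60 whichever of the 5 libraries was left out. Over all 6 libraries the log2 fold change of PPC1 was 0.32 (standard error 0.23, 95% interval -0.25 to 0.88, adjusted p = 0.720), where 0.0123% of 16236 genes were called, and its varieties overlapped.

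SUT1 did not pass the test in either set, and its direction differed between them. Without D2 the log2 fold change of SUT1 was 0.36 (standard error 0.42, 95% interval -0.70 to 1.43, adjusted p = 0.566). Over all 6 libraries it was -0.34 (standard error 0.68, 95% interval -2.004 to 1.33, adjusted p = 0.899). Over all 6 libraries it was also above 0 without L2 (0.018), and without D2 it lay between 0.015 when L1 was left out and 0.72 when L2 was. The intervals are wide and leave room for a difference of more than 1 on the log2 scale in either direction over the 6 libraries. An exact two-sided permutation test over libraries gave p = 0.6 for SUT1 without D2 and p = 0.8 with it. For PPC1 the exact permutation p was 0.2 without D2, the smallest that 2 against 3 libraries can give, and 0.4 with it, where the smallest is 0.1. Adjusted over the 18 permutation tests made here, no value was under 0.6.

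The ratio of the carrier to the carboxylase within a library does not depend on how that library was scaled. SUT1 was 4.51 times PPC1 in D1, 1.68 times in D2 and 4.05 times in D3. It was 3.10 times PPC1 in L1, 8.03 times in L2 and 4.89 times in L3. The varieties overlapped in this ratio with and without D2. The difference of the mean log2 ratio, dwarf minus high-stalk, was -0.21 without D2 (exact permutation p = 0.8) and -0.66 over all 6 libraries (exact permutation p = 0.4). Without D2 it was -0.55 when L1 was also left out and turned to 0.13 when L2 was.

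**Figure D3:**
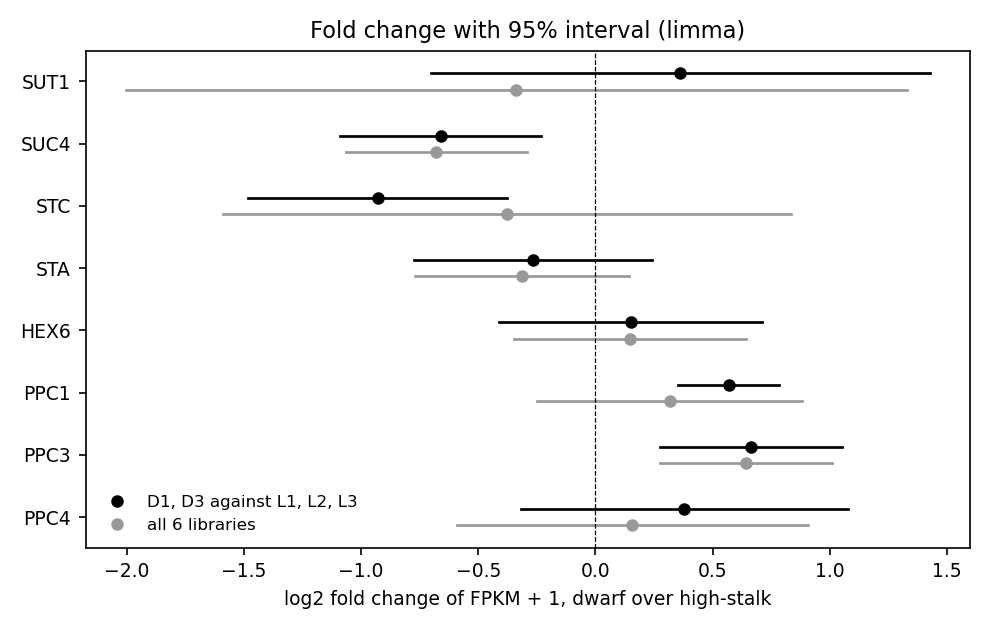
Log2 fold change of FPKM + 1, dwarf over high-stalk, with 95% intervals from limma, for SUT1, PPC1 and the related genes, without D2 (black) and over all 6 libraries (grey). For PPC1 the interval lay above 0 without D2 (0.35 to 0.79) and spanned 0 over all 6 libraries (-0.25 to 0.88), and for SUT1 it spanned 0 in both.

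Among the sugar carriers with a name in the castor RefSeq gene table, SUT1 had the highest FPKM in each library but D2. SUC4 (LOC8288074) is named after a sucrose carrier that lies in the vacuole membrane in Arabidopsis. It had 46.9 FPKM in D1, 43.5 in D2 and 43.7 in D3. L1 had 64.1, L2 had 88.6 and L3 had 65.9. The 3 dwarf libraries, D2 included, were below each high-stalk library, as in 7.41% of the 16236 genes. The log2 fold change of SUC4 was -0.66 without D2 (standard error 0.17, adjusted p = 0.0620) and, with D2, -0.68 (standard error 0.16, adjusted p = 0.340), so it did not pass the test in either set. The exact permutation p of SUC4 was 0.1 over all 6 libraries, the smallest that 3 against 3 libraries can give.

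SUT1 and SUC4 therefore stood in different proportions in the libraries. SUT1 was 7.34 times SUC4 in D1 and 6.76 times in D3, and between 2.38 and 4.58 times in the high-stalk libraries. In D2 it was 1.69 times SUC4, the lowest of the 6. SUT1 made up 88.0% of the summed FPKM of the pair in D1 and 87.1% in D3, against 62.8% in D2 and 70.4% to 82.1% in Zhuansihao. Without D2 the varieties did not overlap in this ratio (difference of the mean log2 ratio 1.04, exact permutation p = 0.2, the smallest possible), and with D2 they did (0.35, exact permutation p = 0.6).

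The other named carriers bear hexose or sugar carrier names. Such carriers typically move hexoses, the products of sucrose cleavage, together with protons, and what these genes carry was not tested. The sugar carrier STC (LOC8275367) had 24.1 FPKM in D1, 94.4 in D2 and 35.5 in D3. L1 had 67.1, L2 had 55.6 and L3 had 48.6. D2 was the highest of the 6 libraries in STC and the lowest in SUT1, and only there did STC exceed SUT1. The log2 fold change of STC was -0.93 without D2 (standard error 0.22, adjusted p = 0.0530) and, with D2, -0.38 (standard error 0.49, adjusted p = 0.843). The hexose carrier HEX6 (LOC8289638) had 6.34 to 10.0 FPKM and did not pass the test (log2 fold change 0.15 without D2, adjusted p = 0.654). The sugar carrier STA (LOC8262851), added after its values were seen, had 13.6 to 21.9 FPKM (log2 fold change -0.27 without D2, adjusted p = 0.381).

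**Figure D4:**
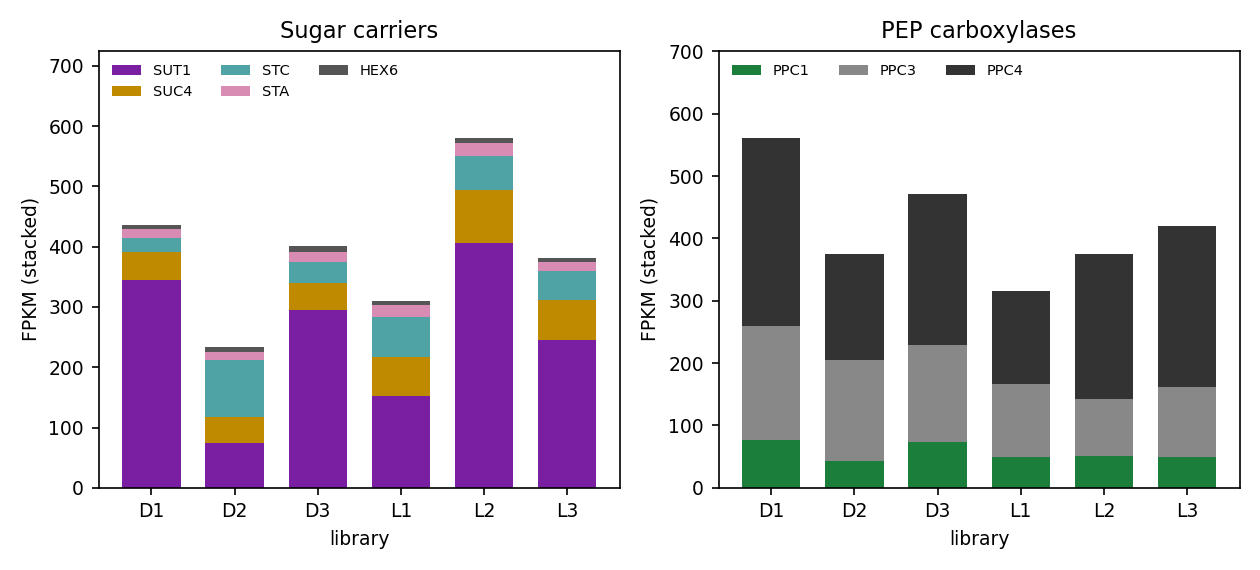
Stacked FPKM of the 5 named sugar carriers (left) and of the 3 named phosphoenolpyruvate carboxylases (right) in each library. SUT1 was the largest part of the carriers in each library but D2, where STC with 94.4 FPKM exceeded SUT1 with 73.6, and PPC1 was the smallest part of the carboxylases in each library.

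PPC1 was the least abundant of the 3 named phosphoenolpyruvate carboxylase genes in each library. The other named genes of the enzyme are PPC3 (LOC8287235) and PPC4 (LOC8269491). Genes of the enzyme without a name were not searched for, so sums and shares below cover the named genes alone. PPC3 had 184 FPKM in D1, 162 in D2 and 156 in D3. L1 had 117, L2 had 92.1 and L3 had 112. The 3 dwarf libraries were above each high-stalk library, as in 7.44% of the 16236 genes, although D2 was below them in PPC1. The log2 fold change of PPC3 was 0.66 without D2 (standard error 0.15, 95% interval 0.28 to 1.05) and its adjusted p of 0.0510 was just over the threshold. With median-ratio scaling of the libraries its adjusted p was 0.0435. Over all 6 libraries it was 0.64 (standard error 0.15, adjusted p = 0.340, exact permutation p = 0.1).

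PPC4 was the most abundant of the named carboxylases, with 301 FPKM in D1, 170 in D2 and 242 in D3. L1 had 149, L2 had 232 and L3 had 258. As in SUT1, the libraries D2 and L1 were the lowest and the varieties overlapped. PPC4 did not pass the test (log2 fold change 0.38 without D2, standard error 0.27, adjusted p = 0.368, and 0.16 over all 6 libraries, adjusted p = 0.895). SUT1 and PPC4 stood near each other in D1, D3, L1 and L3, where SUT1 was 0.949 to 1.22 times PPC4, and apart in D2 (0.433 times) and L2 (1.75 times). The share of PPC1 in the summed FPKM of the 3 carboxylases was 11.6% in D2 and 11.9% in L3, 13.5% in L2 and 13.6% in D1, and 15.5% in D3 and 15.6% in L1. This share was 13.6% ± 1.93 (SD, n = 3) in the dwarf variety and 13.7% ± 1.84 (SD, n = 3) in Zhuansihao, an order of libraries that did not follow the variety. The summed FPKM was 561 in D1, 375 in D2 and 471 in D3, while L1 had 315, L2 had 374 and L3 had 420. How reads shared by similar genes were counted is not given in the sources used here, so the split between the carboxylase genes is uncertain.

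Of the 5 other genes of the list (SUC4, HEX6, STC, PPC3 and PPC4), 0 were higher and 0 lower at an adjusted p under 0.05 without D2. Over all genes tested, 6.96% were higher and 6.17% lower. The median log2 fold change of the 5 was 0.15, with values from -0.93 to 0.66, against -0.06 over all genes. Over all 6 libraries 0 of the 5 passed, and the adjusted p lay between 0.340 and 0.895. At an unadjusted p under 0.05, SUC4 (0.0105), STC (0.00733) and PPC3 (0.00682) passed without D2, where 35.1% of all genes tested did. Over all 6 libraries SUC4 (0.00514) and PPC3 (0.00526) passed, against 9.31% of all genes.

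Genes with a pattern like that of each member were ranked by the Pearson correlation of log2(FPKM + 1) over the 6 libraries, among 16235 other genes. For SUT1 the closest was LOC8266303 (r = 0.999), with 21.6 FPKM in D1, 3.28 in D2 and 17.8 in D3, while L1 had 7.84, L2 had 24.6 and L3 had 13.4. LOC8283482 followed (r = 0.997), with 2.14 to 3.71 FPKM. For PPC1 the closest were LOC8260090 (r = 0.997), where D1 had 20.7 FPKM and D3 had 20.4, the other libraries 15.8 to 17.2, and LOC8289283 (r = 0.997), with 4.28 and 3.84 against 0.269 to 0.976. The sources used here pair none of these IDs with a name. A correlation of at least 0.95 with SUT1 was found for 303 genes (1.87%), and with PPC1 for 624 genes (3.84%). Such counts describe these 6 libraries alone, and the count for PPC1 includes genes such as LOC8289283 that passed the filter only through D1 and D3.

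Of 55 other genes with a name, nitrate reductase NIA (LOC8274143), which reduces nitrate to nitrite, had the second highest correlation with SUT1 (r = 0.942). NIA had 184 FPKM in D1, 82.5 in D2 and 149 in D3, while L1 had 100.3, L2 had 255 and L3 had 160.1, the same order of libraries as SUT1 apart from D3 and L3. The highest of the 55 was ACS4 (LOC8285566, r = 0.968), with 51.9 to 75.9 FPKM. With PPC1 the highest of the 55 was the cytochrome P450 gene CYP726A18 (LOC8259983, r = 0.981). It was listed at 0 in D2, with 4.64 FPKM in D1, 5.50 in D3 and at most 0.5002 in Zhuansihao. CYP726A18 thus reached an FPKM of 1 only in D1 and D3, the libraries with the most PPC1. It entered the ranking through these libraries alone, so its correlation with PPC1 was partly set by the filter. CYP726A18 was followed by CYP726A17 (LOC8259980, r = 0.905) and then by the vacuolar sodium/proton exchanger NHX1 (LOC8288459, r = 0.886). NHX1 had 124 FPKM in D1, 115 in D3 and 80.0 in D2, and 65.0 to 72.4 in Zhuansihao.

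In the RefSeq gene order, the gene directly beside SUT1 on one side, LOC8262745, had 2.65 to 5.15 FPKM. The nearest gene with a row on the other side, LOC8258916, with 2 annotated genes between, had 43.0 to 51.4 FPKM. The nearest such gene on one side of PPC1, LOC8267601, with 4 annotated genes between, had 0.430 to 1.05 FPKM. Directly beside PPC1 on the other side, LOC8285020 had 1.03 FPKM in D1 and 1.10 in D3 and was highest in D2, at 7.64.

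Sums over 2 gene lists of the study also differed between libraries. The summed FPKM of the 8 cell cycle genes that the study names was 61.7 in D2 and 54.9 in L1, the libraries with the least SUT1. It was 6.05 in D1, 6.34 in D3, 18.5 in L2 and 20.5 in L3. The summed FPKM of its 5 lignin genes was 22.0 in D1 and 21.0 in D3, the libraries with the most PPC1, and 2.06 to 4.08 in the other libraries. The study chose these lists on these libraries, and the part of such differences in the levels of SUT1 and PPC1 was not tested.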

How the data were processed

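Poly(A) mRNA libraries were sequenced on the Illumina HiSeq platform. The authors deposited FPKM per gene and library, with replicates not pooled. Which aligner, counter, annotation and build were used is not given in the sources used here, and the read depth is unknown. The DESeq2 test of the study needs read counts and was not repeated.

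Both members and all lists were chosen with earlier results of these data known. RefSeq assembly ASM1957865v1 served for names and gene order alone. The pathway list was matched by symbol (7 genes, both members included). A planned search for sequence relatives and the display of protein or promoter sequences were not made, since no sequence table was used here. STA, and the ranking of alike genes among named genes, were added after values were seen. The rule for genes named in the text took both members, the list, actin and, for each member, at most 2 of the most alike IDs without a name.

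Values were analysed as log2(FPKM + 1), which understates changes of low genes. Genes that reached an FPKM of 1 in 2 or more of the compared libraries entered limma 3.58.1 (R 4.3.3), using its mean-variance trend; p-values were adjusted by Benjamini-Hochberg over all such genes. As in the study, the dwarf libraries D1 and D3 were set against the high-stalk ones, and all 6 libraries were tested beside them. Both comparisons were also run on simulated data, and the outcome is not reported here. Exact permutation tests used scipy 1.17.1. Alternatives were other pseudocounts, filters, scalings and limma settings, the replicate number as a block, and each library left out.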

Additional observations from a re-analysis of the deposited data

How the results depend on the processing

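Replicate numbers gave no clear pairing of the libraries. The correlation of deviations from the variety means was -0.47 for D1 and L1, -0.55 for D2 and L2 and 0.33 for D3 and L3. The deviations within a variety depend on each other, so this check cannot exclude a pairing. With the replicate block, PPC1 without D2 had a log2 fold change of 0.58 (limma, adjusted p = 0.104), and limma called 0 genes without D2 (4584 at an unadjusted p under 0.05) and 0 over all 6 libraries (1072). Other settings kept the call of PPC1 without D2 (adjusted p from 0.0195 to 0.0359). With each library left out, PPC1 had log2 fold changes of 0.54 to 0.60 without D2 and 0.17 to 0.57 over all 6 libraries, and SUT1 had 0.015 to 0.72 without D2. That of SUT1 over all 6 libraries lay between -0.74 and 0.36, above 0 without D2 (0.36) and without L2 (0.018). The log2 ratio of SUT1 to PPC1 without D2 lay between -0.55 and 0.13. HEX6 without D2 (-0.14 to 0.45), and STC (-0.93 to 0.035) and PPC4 (-0.080 to 0.38) over all 6 libraries, also turned. Genes called numbered 0 to 1947 without D2, with 0 when D1 (2710 at an unadjusted p under 0.05) or D3 (2999) was left out, where the lone dwarf library is taken to vary like the others. They numbered 0 to 2090 over all 6 libraries, with 2090 when D2 was left out. At a mean FPKM of at least 5, 1 gene was called over all 6 libraries. Genes past both thresholds without D2 numbered 674 with a pseudocount of 0.1, against 403. Ranked only among the 16236 genes tested, PPC1 stood above 82.9% of genes in L1, 83.3% in L2 and 82.9% in L3. The search for sequence relatives was not run, nor was any alternative identity limit for it.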
